A study of Bos taurus with 9 samples.

Results

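Broad H3K9ac peaks of untreated MDBK cells were followed into cells given butyrate. Of the 74114 peaks that the control H3K9ac list placed on the 30 nuclear chromosomes, 2568 (3.46%) spanned 1000 bp or more, measured as end minus start, and these are the broad peaks described here. They held 3.48 Mb, or 12.0% of the bases that control H3K9ac covered, and their lengths ran from 1000 bp to 5840 bp with a median of 1230 bp. They were picked by a measured value, their length in control cells, so that a part of any later shortening follows from the choice, and no test was based on it.

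The study profiled chromatin by ChIP-seq in MDBK, an established epithelial line from bovine kidney, with antibodies to H3K9ac, H3K27ac, RNA polymerase II (Pol II) and H3K9me3. Each of the 4 antibodies gave 1 library from untreated cells (control) and 1 from cells held in 5 mM butyrate for 24 h, so that 8 peak lists with 673926 peaks in all were compared and no difference between conditions could be tested. Cells of both conditions were the same line, and nothing in the labels separated cultures within a condition. Per the labels, control libraries ran on sequencing lane 4 and butyrate libraries on lane 5, and lane and treatment cannot be told apart.

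Histone acetyltransferases add acetyl groups to lysines of the histone tails and histone deacetylases remove them. Butyrate, a short-chain fatty acid released by rumen and gut microbes, inhibits many of these deacetylases. H3K9ac marks active promoters and some enhancers, H3K27ac marks active promoters and enhancers, Pol II transcribes protein-coding genes, and H3K9me3 marks heterochromatin and silenced repeats. Long stretches of acetylation are often found where transcription is strong.

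The lists hold positions without a score, height or read count, and read depth is therefore unknown for any single peak. According to the mapping summary of the study, the control H3K9ac library had more uniquely placed reads than the butyrate H3K9ac library, whereas the order was the opposite for H3K27ac and Pol II. The H3K9ac list after butyrate was the longer one all the same, with 115104 nuclear peaks, but 645 of them (0.560%) reached 1000 bp. Peaks of that length numbered 4594 in the control and 9951 in the butyrate H3K27ac list, against 4 and 76 in the Pol II lists. Intervals below are 95% Wilson intervals for shares and intervals of the mean over peaks for coverage. They cover counting error and the spread over peaks of 1 pair of libraries, and neighbouring peaks are not independent.

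Most broad peaks still met H3K9ac after butyrate, but few kept it along their whole length. At least 1 bp of a butyrate H3K9ac peak lay in 2329 of them (90.7%, interval 89.5 to 91.8), where 48.6% of all control H3K9ac peaks did. A longer peak meets another list more easily, so the covered bases were measured as well. Butyrate H3K9ac covered a mean of 46.7% of the bases of a broad peak (SD 25.8, interval 45.7 to 47.7, n = 2568 peaks), against a mean of 33.3% over all control H3K9ac peaks. The median was 48.1%, and the middle 50% of broad peaks lay between 27.5% and 66.2%. In 1212 broad peaks (47.2%, against 35.7%) at least 50% of the bases were covered. Full retention was rare, since 103 broad peaks (4.01%) had at least 90% of their bases covered, against 14.6% of all control H3K9ac peaks, and 20 (0.779%) were covered from end to end, against 10.1%. A short peak is covered whole more easily, as the median nuclear peak was 300 bp in the control and 271 bp in the butyrate H3K9ac list. Few broad peaks met a long butyrate peak, but the share was above that of all control H3K9ac peaks. A butyrate H3K9ac peak of 1000 bp or more met 189 broad peaks (7.36%, interval 6.41 to 8.43), against 1.08% of all control H3K9ac peaks. These values depend on short butyrate peaks. With peaks of 500 bp or more alone in the lists looked up, 43.7% of broad peaks still met H3K9ac and the mean coverage was 24.3%.

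The reverse choice gave shortening in the other direction as well, and for H3K9ac to a smaller extent. Of the 645 butyrate H3K9ac peaks of 1000 bp or more, 547 (84.8%, interval 81.8 to 87.4) met control H3K9ac, which covered a mean of 59.1% of their bases (SD 35.1, interval 56.4 to 61.9). A control H3K9ac peak of 1000 bp or more met 188 of them (29.1%, interval 25.8 to 32.8), a larger share than the 7.36% found from control to butyrate, though the control list has more peaks of that length to be met. For H3K27ac, 98.3% of the long control peaks met the butyrate list, which covered a mean of 74.0% of their bases. In the reverse choice 80.2% of the long butyrate H3K27ac peaks met control H3K27ac, which covered a mean of 47.0% of their bases (interval 46.3 to 47.7), so that for H3K27ac the reverse gave the larger shortening. Length itself had no step at 1000 bp. Control H3K9ac peaks of 950 to 999 bp (n = 418) and of 1000 to 1049 bp (n = 371) had 47.3% and 47.0% of their bases covered by butyrate H3K9ac.

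Coverage by H3K27ac, by Pol II after butyrate and by butyrate H3K9ac rose with length, and broad peaks lay at the upper end. In control H3K9ac peaks of 199 to 249 bp, butyrate H3K9ac covered a mean of 26.6% of bases, control H3K27ac 33.4%, butyrate H3K27ac 51.5% and butyrate Pol II 5.75%. In those of 750 to 999 bp the butyrate H3K9ac value was already 45.7%, and above 1000 bp it changed little, from 46.3% at 1000 to 1499 bp (n = 1972) to 49.0% at 2000 bp and more (n = 162). At 2000 bp and more control H3K27ac covered 91.8% and butyrate Pol II 18.6%. H3K9me3 did not share this course, with butyrate H3K9me3 on 2.30% of bases at 199 to 249 bp, 1.36% at 1000 to 1499 bp and 1.00% at 2000 bp and more, and control H3K9me3 on 1.85%, 1.74% and 2.38%. The order of both H3K27ac lists turned with length, since butyrate H3K27ac covered more of the short peaks and control H3K27ac covered more of the longest ones.

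**Figure D1:**
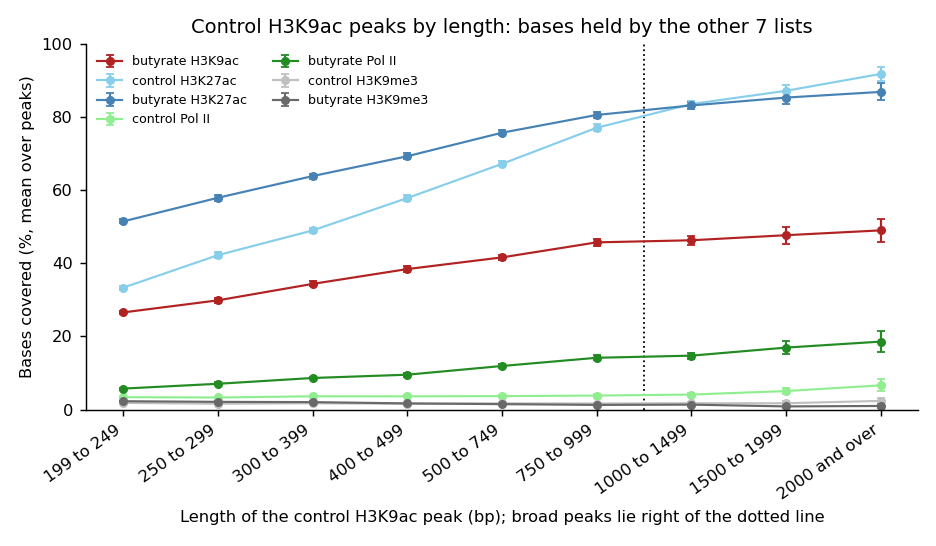
Mean share of bases (%, y axis) of control H3K9ac peaks covered by each of the other 7 lists, for 9 classes of peak length (bp, x axis); error bars are 95% intervals over peaks and broad peaks lie right of the dotted line. Butyrate H3K9ac levels off near 46% to 49% in broad peaks while control H3K27ac climbs from 33.4% in the shortest class to 91.8% in the longest.

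What was left of H3K9ac came in short pieces. A piece is a butyrate H3K9ac peak that lies at least in part inside a broad peak. No piece was found in 239 broad peaks (9.31%, against 51.4% of all control H3K9ac peaks), 1 piece in 1122 (43.7%, against 44.1%), 2 pieces in 942 (36.7%, against 4.12%) and 3 or more in 265 (10.3%, against 0.395%), with up to 6 pieces in 1 broad peak. Longer peaks have room for more pieces, and the median length of the broad peak was 1144 bp with no piece, 1183 bp with 1 piece, 1267.5 bp with 2 and 1707 bp with 3 or more. The 3849 pieces had a median of 350 bp inside the broad peak, and the longest piece of a broad peak had a median of 458 bp, which was a median of 35.4% of its length. Of the pieces, 745 (19.4%) reached beyond an edge, and 20 butyrate peaks held a whole broad peak. The share reaching beyond an edge was not computed over all control H3K9ac peaks. The 1207 broad peaks with 2 or more pieces (47.0%, against 4.51% of all control H3K9ac peaks) rest on short peaks as well. Splitting was not particular to H3K9ac, since 48.4% of the 4594 long control H3K27ac peaks held 2 or more butyrate H3K27ac peaks (interval 46.9 to 49.8). For H3K9ac the share was 26.8% when pieces less than 200 bp apart were joined, 32.9% when the longer list of each antibody was reduced to its longest peaks and 3.89% with peaks of 500 bp or more.

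In the commonest split, into 2 pieces, the gap lay mostly near the middle of the broad peak and was short. Of 942 such gaps, 616 (65.4%, interval 62.3 to 68.4) had their midpoint in the central part when the broad peak was cut into 3 equal parts, and their median length was 201 bp, with quartiles of 107.5 and 335.75 bp. A piece on either side of a gap keeps the gap away from the ends, so this position is a description. Of the 1122 lone pieces, 595 (53.0%, interval 50.1 to 55.9) had their midpoint in the central part. Lone pieces covered a mean of 43.6% of the broad peak. That length holds many midpoints away from the ends, so this share shows no preference for the centre by itself. H3K27ac was lower in the gaps than in the pieces, and higher than at the ends. Butyrate H3K27ac covered 84.1% of gap bases, 93.6% of piece bases and 73.1% of the bases between the outer pieces and the ends. Butyrate Pol II covered 12.6% of gap bases, 21.5% of piece bases and 9.23% of end bases.

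Centre and flanks were compared inside each broad peak, where the centre is the central of 3 equal parts and the flanks are the outer parts. Butyrate H3K9ac was kept somewhat more in the centre, with a mean of 52.5% of centre bases and 43.8% of flank bases. The difference was 8.62 percentage points (SD 34.6, interval 7.28 to 9.96, n = 2568), which is small beside its spread over peaks. The centre was covered more than the flanks in 1404 broad peaks (54.7%, against 26.5% of all control H3K9ac peaks), less in 905 (35.2%, against 11.9%) and equally in 259 (against 61.6%). Most of all control H3K9ac peaks had centre and flanks covered equally, which lowers both of their other shares. Among all of them the centre was covered more in 19648 and less in 8837. The lean to the centre was thus no weaker there than in broad peaks. Left and right flanks of broad peaks were alike, at 43.6% and 44.1%. The same order was seen in the reverse choice, where control H3K9ac covered the centre of long butyrate peaks by 4.64 points more than their flanks (interval 2.54 to 6.73), and in control H3K9ac peaks of 750 to 999 bp, where the centre exceeded the flanks by 9.39 points. In long control H3K27ac peaks, butyrate H3K27ac covered the centre by 8.81 points more (interval 8.02 to 9.61).

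The profile along the broad peaks showed a flat middle and a fall at the ends. Butyrate H3K9ac covered 27.01% of bases in the first 5% of the length, 52.6% in the 5% before the midpoint and 27.9% in the last 5%. Butyrate H3K27ac covered 68.9%, 88.2% and 68.7% at the same positions, and control H3K27ac 73.8%, 87.6% and 73.4%. Butyrate Pol II covered 8.71%, 17.5% and 8.75%. Measured in bp, the fall in butyrate H3K9ac lay in the outermost 200 bp. From the edge inward it covered 29.8% of bases within 100 bp, 42.5% at 100 to 200 bp, 48.8% at 200 to 300 bp and 52.0% at 400 to 500 bp. The contrast therefore rose when narrower ends were taken, to 13.7 points for the middle 20% of the length against the outermost 20% at each end and to 16.6 points for 200 bp at the midpoint against 200 bp at each end.

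**Figure D2:**
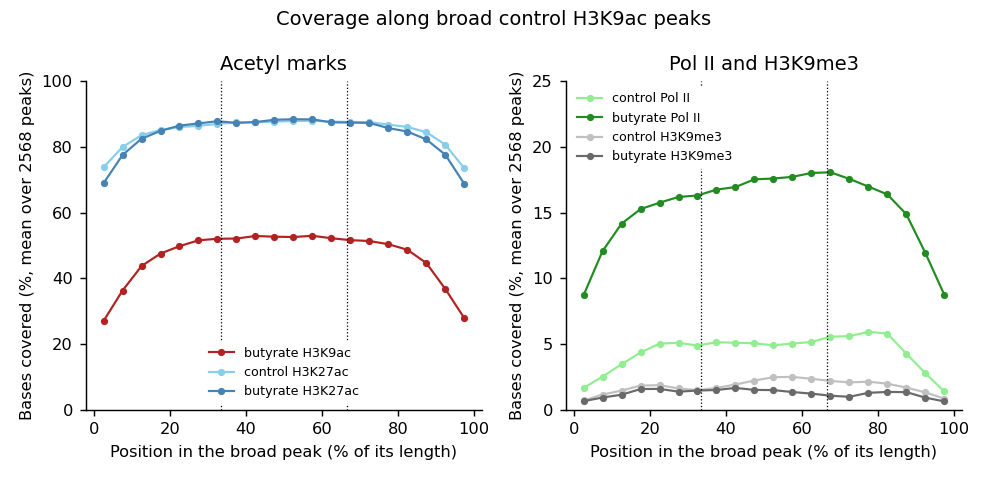
Mean share of bases covered (%, y axis) in 20 bins along 2568 broad control H3K9ac peaks scaled to equal length (x axis, % of length), for acetyl marks (left) and for Pol II and H3K9me3 (right, on a shorter axis); dotted lines bound the centre. Every acetyl list is lowest in the outermost bins, and butyrate H3K9ac goes from 27.01% at the first bin to about 52% over the middle.

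By a threshold of 50% of the bases of each part, no single outcome was typical for H3K9ac. Butyrate H3K9ac held the centre and both flanks in 466 broad peaks (18.1%), the centre and 1 flank in 672 (26.2%), the centre alone in 293 (11.4%), 1 flank alone in 491 (19.1%), both flanks without the centre in 158 (6.15%) and no part in 488 (19.0%). H3K27ac was far more uniform. Control H3K27ac held all 3 parts in 1930 broad peaks (75.2%) and butyrate H3K27ac in 1873 (72.9%). Pol II held few parts, and 1680 broad peaks (65.4%) had no part held by butyrate Pol II. These shares were not computed over all control H3K9ac peaks, so whether the mix is particular to broad peaks was not tested.

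**Figure D3:**
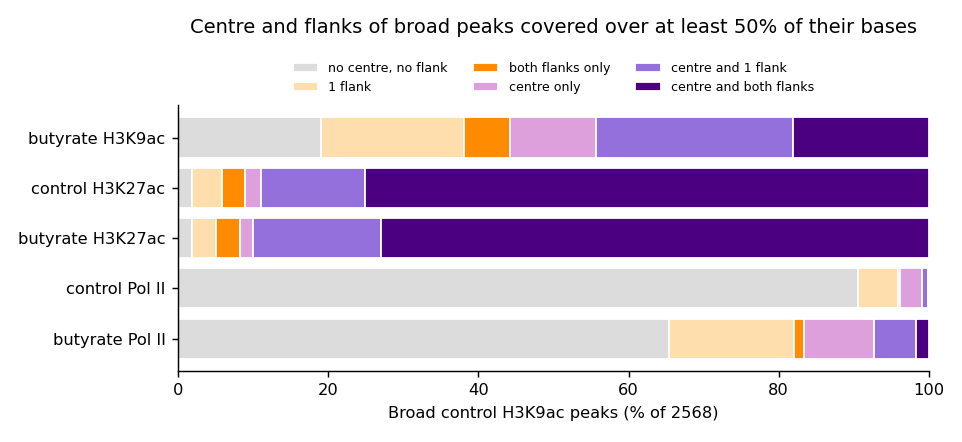
Share of 2568 broad control H3K9ac peaks (%, x axis) by which of the centre and flanks were covered over at least 50% of their bases, for 5 lists (rows). Butyrate H3K9ac is spread over all 6 outcomes, with 18.1% holding all parts, while control and butyrate H3K27ac hold all parts in 75.2% and 72.9%.

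Where H3K9ac stayed on 1 side, H3K27ac and Pol II leaned to the same side. In 1163 broad peaks exactly 1 flank was held by butyrate H3K9ac over at least 50% of its bases. Butyrate Pol II covered a mean of 17.6% of that flank and 10.7% of the opposite one (difference 6.91 points, interval 4.90 to 8.92), and was higher on the kept side in 330 peaks and on the other in 205. Butyrate H3K27ac covered 89.5% and 76.8% (difference 12.7 points, interval 10.7 to 14.7). The lists from untreated cells leaned the same way by fewer points, with control H3K27ac on 85.8% and 80.0% and control Pol II on 5.36% and 2.37%. In proportion to its low coverage, control Pol II leaned no less than butyrate Pol II. It was higher on the kept side in 136 peaks and on the other in 73. Control H3K9me3, a mark of silent chromatin, covered 1.88% and 1.14% (difference 0.736 points, interval 0.035 to 1.44), and butyrate H3K9me3 1.43% and 1.03% (difference 0.402 points, interval -0.269 to 1.07).

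The same comparison was made base by base. A base of a broad peak is called kept where butyrate H3K9ac covers it and lost where it does not, which says that no peak was called there and not that the mark was absent. In the 2309 broad peaks with bases of both kinds, 1611 kb were kept and 1561 kb lost. Butyrate Pol II covered a mean of 20.1% of kept and 10.8% of lost bases (difference 9.32 points, interval 8.27 to 10.4, ratio 1.87), with kept bases higher in 859 peaks and lost bases higher in 345. Butyrate H3K27ac covered 92.7% of kept and 78.0% of lost bases (difference 14.6 points, interval 13.6 to 15.7), with kept bases higher in 1403 and lost bases higher in 263. Control H3K27ac covered 88.0% and 80.6%, and control Pol II 5.71% and 3.13% (ratio 1.82).

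H3K9me3, called against the same input as the other lists, moved with the same bases. Control H3K9me3 covered 2.33% of kept and 1.22% of lost bases (ratio 1.91), and butyrate H3K9me3 1.65% and 0.835% (ratio 1.98). In ratio this was as large as for Pol II, although it rests on few bases, and its part in the Pol II result was not tested. Without the broad peaks that met any H3K9me3 peak, the difference was 8.56 points for butyrate Pol II and 14.8 points for butyrate H3K27ac. Within the centre alone, where position differs less, butyrate Pol II covered 21.2% of kept and 13.0% of lost bases (difference 8.16 points, n = 1705 peaks). For butyrate H3K27ac the centre alone gave 93.2% and 84.8% (difference 8.48 points). With peaks of 500 bp or more in the lists looked up, the Pol II difference was 2.96 points and that of butyrate H3K9me3 was -0.19 points.

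**Figure D4:**
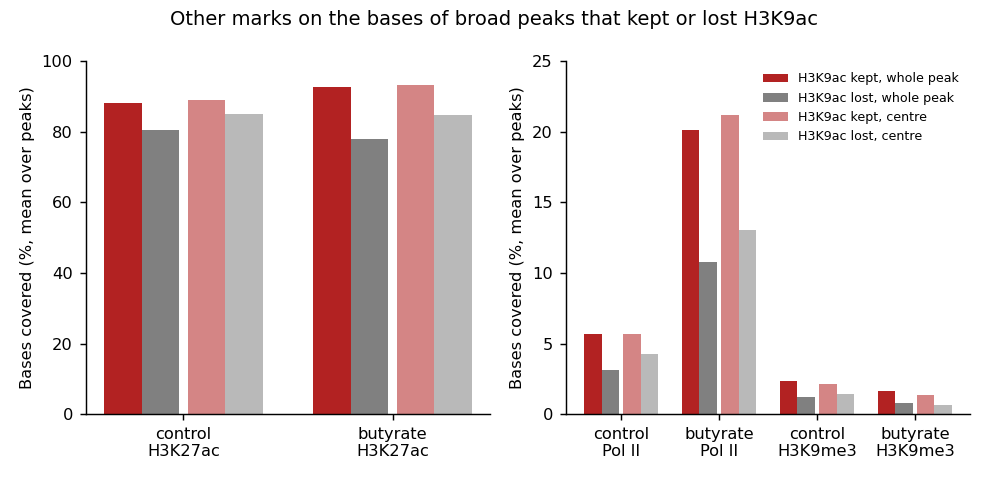
Mean share of bases covered (%, y axis) by H3K27ac (left) and by Pol II and H3K9me3 (right, on a shorter axis) on bases of broad peaks that kept (red) or lost (grey) H3K9ac after butyrate, over the whole peak (dark, n = 2309 peaks) and within the centre (light, n = 1705). Butyrate Pol II covers 20.1% of kept and 10.8% of lost bases, and the low H3K9me3 bars differ in the same direction.

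H3K27ac covered most of the broad peaks in both conditions. It met 2542 of them in control cells (99.0%, against 60.3% of all control H3K9ac peaks) and 2543 after butyrate (99.0%, against 73.2%). It covered a mean of 84.7% of bases in control (SD 20.9) and 83.8% after butyrate (SD 19.8), and the mean change was -0.91 points (SD 25.2, interval -1.89 to 0.06). It covered the whole length of 830 broad peaks in control (32.3%, against 24.1%) and of 665 after butyrate (25.9%, against 37.1%). Single peaks moved both ways, with coverage higher after butyrate in 1045, lower in 1252 and equal in 271. A peak of H3K27ac of 1000 bp or more met 1665 broad peaks in control (64.8%, against 10.1%) and 1588 after butyrate (61.8%, against 15.6%), whereas for H3K9ac after butyrate it was 189. The 24 broad peaks with H3K27ac in control alone kept H3K9ac on a mean of 9.34% of their bases, and 13 of them had none. The 25 with H3K27ac after butyrate alone kept 39.4%, and 3 of them had none. The 2518 with H3K27ac in both conditions kept 47.2%, and 223 of them had none. These groups were not computed over all control H3K9ac peaks, so whether their order is particular to broad peaks was not tested.

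Pol II coverage of broad peaks was higher after butyrate. Control Pol II met 535 of them (20.8%, interval 19.3 to 22.4, against 7.1% of all control H3K9ac peaks) and butyrate Pol II met 1292 (50.3%, interval 48.4 to 52.2, against 15.6%), although the control Pol II list had more nuclear peaks, 56225 against 31225. The mean coverage was 4.44% of bases in control (SD 10.1) and 15.4% after butyrate (SD 19.5), a mean change of 10.9 points (interval 10.1 to 11.7), with 1204 peaks higher, 299 lower and 1065 equal. Coverage of all control H3K9ac peaks was 3.55% in control and 8.41% after butyrate. With peaks of 500 bp or more in the lists, it was 0.375% and 4.15% of broad peak bases. The butyrate Pol II library had more uniquely placed reads than the control one, as given above, and the part of depth in this rise was not tested.

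Broad peaks with Pol II in both conditions kept the most H3K9ac. The 319 peaks of this kind (12.4%, against 1.85% of all control H3K9ac peaks) kept it on a mean of 61.3% of bases (SD 22.3), and 5 of them (1.57%) had none. The 973 with Pol II after butyrate alone (37.9%, against 13.8%) kept 49.5% (SD 24.7), the 216 with Pol II in control alone (8.41%, against 5.26%) kept 48.3% (SD 25.2), and the 1060 with Pol II in neither (41.3%, against 79.1%) kept 39.5% (SD 25.5). The intervals of the middle groups overlap (47.9 to 51.0 and 45.0 to 51.7), whereas those of the first and last (58.9 to 63.8 and 37.9 to 41.0) do not overlap with them. The share with no H3K9ac after butyrate was 14.3% in the last group. Median lengths were 1361, 1238, 1297.5 and 1184 bp in the same order.

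Read from the side of H3K9ac, the broad peaks without a piece were the poorest in Pol II in both conditions. Butyrate Pol II met 70 of the 239 peaks with no piece (29.3%, interval 23.9 to 35.3), 49.2% of those with 1 piece, 54.0% of those with 2 and 60.8% of those with 3 or more. Control Pol II had the same order before treatment. It met 22 of the 239 (9.21%, interval 6.16 to 13.5), then 17.7%, 24.8% and 30.2%. The step between no piece and 1 piece was also seen within classes of length. Among broad peaks of 1000 to 1249 bp the shares were 28.3% with no piece, 48.3% with 1, 47.0% with 2 and 53.5% with 3 or more, and among those of 1500 bp and more they were 34.6%, 55.5%, 66.0% and 66.7%. In the 189 broad peaks that met a butyrate H3K9ac peak of 1000 bp or more, butyrate Pol II was found in 70.4% (interval 63.5 to 76.4) and control Pol II in 41.8%, and control H3K9me3 was also frequent there, in 23.3% against 9.07% of all broad peaks. The share with butyrate Pol II was 23.2 points higher with a piece than without, and 6.38 points higher with peaks of 500 bp or more in the lists. Without the peaks that met H3K9me3 it was 20.8 points higher.

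Broad peaks with no piece had less H3K27ac than the others after butyrate, and about as much in control cells. In the 239 broad peaks with no piece, control H3K27ac covered 84.4% of bases (SD 22.9) and butyrate H3K27ac 66.6% (SD 27.1, interval 63.1 to 70.0), against 84.7% and 85.6% in the 2329 with at least 1 piece. Few broad peaks met no acetyl list, and 226 of the 239 still met butyrate H3K27ac (8.80% of broad peaks, against 30.8% of all control H3K9ac peaks). In all, 13 broad peaks (0.506%, against 20.6%) met neither acetyl list after butyrate. All 13 had met control H3K27ac, their median length was 1169 bp and the longest spanned 1960 bp.

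The outside of the broad peaks was acetylated too. In control cells H3K9ac covered 2.0% of the bases within 100 bp of an edge, where the peak had just ended, 29.4% at 200 to 300 bp and 35.6% at 500 to 600 bp. After butyrate H3K9ac covered 11.1% within 100 bp and 16.4% at 500 to 600 bp. Control H3K27ac covered 45.2% within 100 bp and butyrate H3K27ac 39.6%, and both went past the H3K9ac edge. At 10 kb from the edge control H3K9ac covered 10.3% and butyrate H3K9ac 8.06%. Another broad peak lay within 5 kb of 868 broad peaks (33.8%), a share not computed over all control H3K9ac peaks. H3K9ac was kept on 45.8% of bases in these 868 (interval 44.1 to 47.5) and on 47.2% of bases in the others (interval 46.0 to 48.4), a difference within the intervals.

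The 8 longest broad peaks all kept H3K9ac in part, and 7 of them in several pieces. Positions are on the assembly UMD3.1, and genes at these positions are not given because no annotation of that assembly was used here. The longest, chr27:15051012-15056851 (5840 bp), had butyrate H3K9ac on 2007 bp in 5 pieces, control and butyrate H3K27ac on 5840 and 4937 bp, control and butyrate Pol II on 0 and 1485 bp, and no H3K9me3. At chr6:23674152-23679109 (4958 bp) butyrate H3K9ac held 1858 bp in 4 pieces, H3K27ac 4574 and 4440 bp, Pol II 207 and 971 bp, and H3K9me3 0 bp in both conditions. The exception was chr5:117220529-117225428 (4900 bp), with 1 piece of 511 bp, H3K27ac on 4900 and 3732 bp, Pol II on 0 and 769 bp, and H3K9me3 on 202 and 0 bp. Its single piece lay in the right flank, and centre and left flank were free.

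The other 5 kept between 31.7% and 60.8% of their bases. At chr4:95463055-95467664 (4610 bp) butyrate H3K9ac held 2511 bp in 6 pieces, the highest number of all broad peaks, with H3K27ac on all 4610 bp in both conditions, Pol II on 0 and 2050 bp and H3K9me3 on 199 and 0 bp. At chr19:10973144-10977613 (4470 bp) it held 1418 bp in 3 pieces, H3K27ac 4310 and 3999 bp, and neither Pol II nor H3K9me3 was found in either condition. At chr3:51661150-51665269 (4120 bp) it held 2503 bp in 5 pieces, H3K27ac 3741 and 3469 bp, Pol II 0 and 894 bp, and H3K9me3 0 bp in both. Pol II went the other way at chr2:36819376-36823447 (4072 bp), which had 227 bp in control and 0 bp after butyrate, with butyrate H3K9ac on 1989 bp in 5 pieces, H3K27ac on 3959 and 3623 bp and no H3K9me3. The last, chr2:72797111-72800807 (3697 bp), had butyrate H3K9ac on 2034 bp in 4 pieces, H3K27ac on 3697 and 2667 bp, Pol II on 0 and 1172 bp, and H3K9me3 on 505 and 0 bp. Butyrate H3K27ac covered no more bases than control H3K27ac in any of the 8, and Pol II was listed after butyrate alone in 5 of them.

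**Figure D5:**
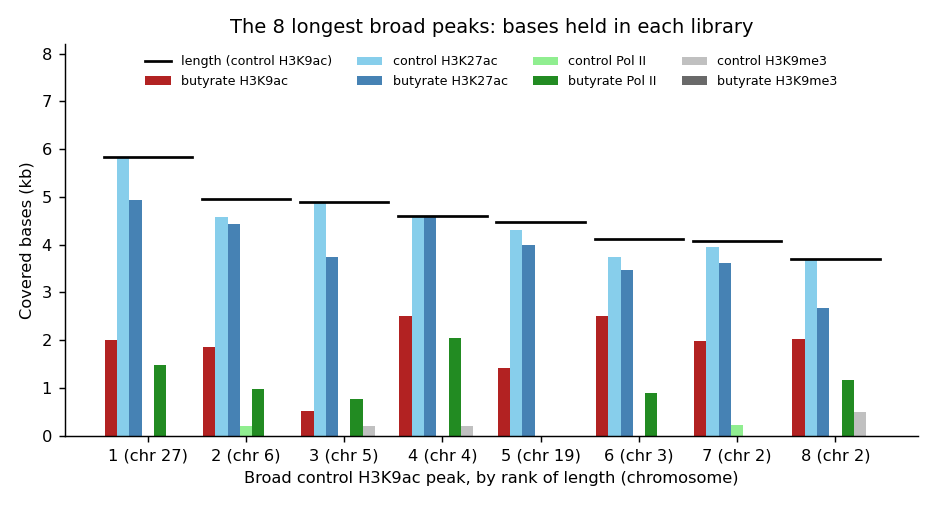
Bases (kb, y axis) held by 7 lists in the 8 longest broad control H3K9ac peaks (x axis, rank of length and chromosome); the black line marks the length of the peak, which is its control H3K9ac. In the longest, 2007 of 5840 bp kept H3K9ac, and H3K27ac bars stay near the line in both conditions.

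Broad peaks that lost H3K9ac altogether reached 2156 bp and kept H3K27ac to different extents. At chr12:19617700-19619855 (2156 bp) control and butyrate H3K27ac held 1934 and 1171 bp, and Pol II 0 and 210 bp. At chr10:29964452-29966579 (2128 bp) H3K27ac held 2029 and 1327 bp, and at chr8:46629692-46631806 (2115 bp) it held 1990 and 499 bp, with no Pol II at either in either condition. At chr1:42849256-42851235 (1980 bp) H3K27ac held 1724 and 1600 bp, and Pol II 274 and 0 bp. H3K9me3 was not found at any of the 4, and butyrate H3K27ac was below control in each.

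At the other end, the 4 longest broad peaks with at least 90% of bases kept all met H3K9me3 in 1 condition. At chr5:34693459-34696247 (2789 bp) butyrate H3K9ac held 2541 bp in 3 pieces, H3K27ac 2208 and 2698 bp, Pol II 215 bp in each condition, and H3K9me3 0 and 228 bp. At chr15:38623555-38626162 (2608 bp) it held 2372 bp in 2 pieces, H3K27ac 2608 and 2501 bp, Pol II 0 and 1561 bp, and H3K9me3 392 and 0 bp. The most complete was chr5:79280418-79282613 (2196 bp), with 1 piece of 2130 bp, H3K27ac on 2185 and 2194 bp, Pol II on 490 and 1625 bp, and H3K9me3 on 413 and 0 bp. At chr8:104172104-104173965 (1862 bp) it held 1682 bp in 2 pieces, H3K27ac 1862 and 1738 bp, Pol II 0 and 326 bp, and H3K9me3 221 and 0 bp. Over all broad peaks, control H3K9me3 met 233 (9.07%, against 3.45% of all control H3K9ac peaks) and butyrate H3K9me3 met 152 (5.92%, against 3.61%). By bases, which do not grow with length by construction, control H3K9me3 covered 1.78% of broad peaks against 1.73% of all control H3K9ac peaks, and butyrate H3K9me3 1.26% against 1.98%.

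By the threshold of 50% given above, the centre alone was held in more broad peaks (293) than both flanks without the centre (158). Stricter rules picked regions to name. In 49 broad peaks (1.91%, not computed over all control H3K9ac peaks) the centre was free of butyrate H3K9ac while both flanks held some. The longest was chr15:14319243-14322161 (2919 bp), where 54.9% of the left and 46.5% of the right flank were covered, control and butyrate H3K27ac held 2919 and 2802 bp, Pol II 0 and 1431 bp, and H3K9me3 0 bp in both. At chr2:36213031-36215487 (2457 bp) the flanks were covered over 39.3% and 84.0%, H3K27ac held 2457 and 2184 bp, Pol II 0 and 631 bp, and H3K9me3 0 bp in both. Less H3K27ac was left after butyrate at chr2:72632250-72634639 (2390 bp), where flank coverage was 38.6% and 26.0%, H3K27ac held 2257 and 546 bp, Pol II 588 and 0 bp, and H3K9me3 was 0 bp in both. At chr10:30091587-30093938 (2352 bp) flank coverage was 26.5% and 17.9%, H3K27ac held 2352 and 1700 bp, Pol II 0 and 199 bp, and H3K9me3 0 and 238 bp. A centre covered over at least 90% with both flanks free, a narrower rule than the one before, occurred once, at chr28:6869977-6871157 (1181 bp), where 1 piece of 373 bp lay under H3K27ac on all 1181 bp in both conditions, with Pol II on 0 and 533 bp and H3K9me3 on 0 bp in both.

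In control cells H3K27ac met 60.3% of all control H3K9ac peaks, whereas broad H3K9ac without it was rare, with 26 such peaks (1.01%). The longest, chr24:43486691-43488442 (1752 bp), had H3K27ac on 1031 bp after butyrate, H3K9ac on 818 bp, and Pol II on 0 and 238 bp. At chr6:51539449-51541101 (1653 bp) butyrate H3K27ac held all 1653 bp, H3K9ac 445 bp and Pol II 215 and 0 bp. At chr19:14274271-14275865 (1595 bp) it held 657 bp and H3K9ac 671 bp, with no Pol II, and at chr3:470537-471746 (1210 bp) it held 1154 bp and H3K9ac 628 bp, with Pol II on 0 and 299 bp. H3K27ac was thus present in all 4 after butyrate, H3K9ac was kept there in 2 pieces each, and H3K9me3 was not found. Of the 26, 25 met H3K27ac after butyrate and 1 met it in neither condition.

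Broad peaks were not spread evenly over chromosomes. Their share of the control H3K9ac peaks of a chromosome ran from 0.587% on X (5 of 852) to 4.53% on chromosome 5 (255 of 5623). Retention was highest on chromosomes 17 (54.4% of bases, n = 44), 5 (54.0%, n = 255), 14 (52.8%, n = 101) and 15 (52.3%, n = 99), and among autosomes lowest on chromosome 6 (39.6%, n = 137). Chromosomes 5, 14 and 15 were grouped after their values were seen, and chromosome 17 was left out. The contrasts of this group are therefore descriptions, and their intervals do not allow for the choice. The 3 chromosomes held 455 broad peaks and kept H3K9ac on 53.4% of bases (interval 50.7 to 56.0), against 45.3% (interval 44.2 to 46.3) on the other 27. Long butyrate peaks gathered there, as 80 of the 455 (17.6%, interval 14.4 to 21.3) met a butyrate H3K9ac peak of 1000 bp or more, against 109 of 2113 (5.16%, interval 4.29 to 6.19) elsewhere. Control Pol II (8.18% of bases against 3.63%) and control H3K9me3 (5.23% against 1.03%) were also higher in the broad peaks of these chromosomes, whereas control H3K27ac was not (84.1% against 84.8%), and the part of H3K9me3 in the difference was not tested. On chromosome 17, where retention was highest, control Pol II covered 4.27% and control H3K9me3 1.27% of bases.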

How the data were processed

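The authors deposited 1 peak list per library. Reads were 75 nt long per the labels. The submitters' processing notes name Trim Galore 0.4.1, BWA, MACS2 and assembly UMD3.1, and the methods of the study describe trimming with Trim Galore for other data types alone. Per those methods, ChIP-seq reads were aligned with BWA, and peaks were called in each library separately with MACS2 at default settings against the MDBK input, whose library was not analysed here. The deposited lists hold chromosome, start and end in bp, with no score, signal or read count, so depth per peak is unknown. The first base of a chromosome was taken as 0 for starts, and printed starts are 1 higher. The 30 nuclear chromosomes were used.

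Broad peaks were control H3K9ac peaks of 1000 bp or more. Overlap meant at least 1 bp. Coverage was the percent of bases under the peaks of a list, averaged over broad peaks. All control H3K9ac peaks gave the background shares. Each group had 1 library, so no test between conditions was made. Shares had 95% Wilson intervals, and means had intervals from the spread over peaks. Named regions were the 8 longest broad peaks and the 4 longest with no butyrate H3K9ac, with at least 90% kept, with a free centre between held flanks, with a kept centre between free flanks (1 found) and without control H3K27ac. Broad peaks and rules were chosen with earlier results of these data known. No genome or annotation of UMD3.1 was used, so genes and sequences are not given. Alternatives were a 500 bp minimum in the lists looked up, broad peaks from 1500 or 2000 bp, joined peaks, other chromosome sets, lists of equal size, a first base of 1, a 50% overlap and other cuts of centre and flanks. Scripts were tested on simulated data and used Python 3.11.15, numpy 2.4.6 and matplotlib 3.10.9.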

Additional observations from a re-analysis of the deposited data

Results flagged for a closer look

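The control H3K9ac list also held 4 peaks of 1000 bp or more on the mitochondrial genome, which were outside the nuclear set described above. The mitochondrial genome carries no histones. All 8 lists had between 5 and 15 mitochondrial peaks, 11 of them in control H3K9ac, and the butyrate H3K9ac list had 6 of 1000 bp or more. Their cause was not tested.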

How the results depend on the processing

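No paired analysis was possible because no group held more than 1 library, and none could be left out. Over 217 values recomputed for the broad peaks as a whole, 124 stayed within the 95% interval of the reported value, 92 left it and 1 changed sign. Some of the 124 could not change. A minimum of 500 bp leaves overlap with peaks of 1000 bp or more as it was, and reducing the longer list leaves the shorter one as it was. The share with a piece and the share without were both counted, although 1 fixes the other. Of 100 values for named regions, 65 stayed within the interval and 35 left it. These intervals count each base of a region as a unit, although the bases of 1 peak are not independent. Regions without butyrate H3K9ac could not change with a length minimum or a reduced list, so these counts do not measure stability. The strictest alternative, peaks of 500 bp or more in the lists looked up, gave 43.7% of broad peaks meeting butyrate H3K9ac (reported 90.7%), 24.3% of bases covered (46.7%), 3.89% with 2 or more pieces (47.0%), 44.5% of bases in the reverse choice (59.1%) and 6.38 points more Pol II with a piece (23.2), and the kept minus lost difference of butyrate H3K9me3 became -0.19 points (reported 0.815). The centre stayed above the flanks in every alternative. Broad peaks from 1500 bp (n = 596) gave 95.6%, 48.1%, 69.6%, a centre difference of 6.89 points and 66.6% in the reverse choice. From 2000 bp (n = 162) the values were 98.1%, 49.0% and 85.8%, with 39.0 points for Pol II that rest on 3 broad peaks without a piece. Joining peaks less than 200 bp apart gave 49.2% of bases, 26.8% with 2 or more pieces and a centre difference of 10.6 points. Reducing the longer list of each antibody to its longest peaks gave 83.4%, 42.6% and 32.9%. An overlap of at least 50% of a broad peak gave 47.2%. The centre difference was 13.7 points with 20% of the length at the middle and at each end and 16.6 points with 200 bp. Mean coverage was 45.6% without chromosomes 5 and 14. Of the alternatives chosen after seeing the data, leaving out broad peaks that met H3K9me3 gave 44.7% and leaving out chromosomes 5, 14 and 15 gave 45.3%. Depth limits all of these values in a way the lists do not show, since peak number and length change with it and the input was shared.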
